A study of Mus musculus with 4 samples.

Results

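Glycolysis and glucose uptake genes were followed here in mouse motor neuron cultures with and without an induced transcription factor. The 10 genes are the glucose transporters Slc2a1 and Slc2a3, the glycolytic enzymes Hk2, Pfkl, Pfkp, Aldoa, Pgk1, Eno1 and Ldha, and the pyruvate dehydrogenase kinase Pdk1. They were chosen by symbol, and 9 of the 10 have a row among the 11747 rows of the deposited table. Eno1 is not listed, so it has no value here. The cultures derive from embryonic stem cells of the A172LoxP line that carry a transgene for that factor, which the antibiotic doxycycline switches on. All cells, those of the control group included, carry this transgene. Embryoid bodies, floating aggregates of these cells, were patterned for 2 days with retinoic acid (0.5 µM) and with purmorphamine (1 µM), which activates the hedgehog pathway. They were then kept for 2 to 3 days more with vehicle or with 2 µg/mL doxycycline. RNA sequencing gave 2 libraries per group, numbered 1 and 7 with vehicle and 2 and 8 with doxycycline. No library combines doxycycline with cells that lack the transgene, so effects of the drug and of the induced factor cannot be told apart.

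Glycolysis splits glucose into pyruvate in the cytosol and yields ATP without oxygen. Glucose enters through facilitative transporters, is trapped by hexokinase, is committed by phosphofructokinase and is cleaved by aldolase. Lower steps recover ATP through phosphoglycerate kinase, and lactate dehydrogenase turns pyruvate into lactate. Pyruvate dehydrogenase kinases switch off the mitochondrial complex that turns pyruvate into acetyl-CoA. Several of these genes are textbook targets of the hypoxia-inducible factor HIF, and neural progenitors are known to rely on glycolysis more than the neurons they form.

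Values are normalized read counts, and a change is the log2 difference of normalized count + 1, doxycycline minus vehicle, ± SE from limma over n = 2 libraries per group. None of the 9 genes passed the limma test at an adjusted p under 0.05, a threshold that 0.579% of all rows passed as higher and 1.79% as lower with doxycycline. At an unadjusted p under 0.05 there were 4 of the 9, all with higher values (9.58% of all rows). Such counts for the gene lists below take in both directions, and the share of all rows in both directions was not computed. They are therefore not read as a result about those lists. Values above 0 were found for 8 genes and a value below 0 for Pfkp alone, where 50.6% of all rows lay above 0. Both doxycycline libraries lay above both vehicle libraries in 7 of the 9, against 26.7% of all rows. The median change of the 9 genes was 0.38, and that of all rows was 0.00. Library 1 was the lowest of the 4 libraries for 6 of the 9 genes (29.2% of all rows), and without it the median change of the 9 genes was 0.12. Between libraries of neighbouring numbers, library 2 was above library 1 and library 8 above library 7 in 8 of the 9 genes (37.1% of all rows), and both differences were below 0 for Pfkp. With these neighbours as a block, a pairing the labels do not give, the same limma test passed those 8 genes as higher (13.9% of all rows), in a fit with 1 residual degree of freedom. The thinnest value, Pfkp in library 2, rests on an estimated 428 reads, a relative counting error of 4.83%. This error was smaller for every other value, but it is not small beside the Pfkp difference of -0.13 between libraries 2 and 1.

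**Figure D1:**
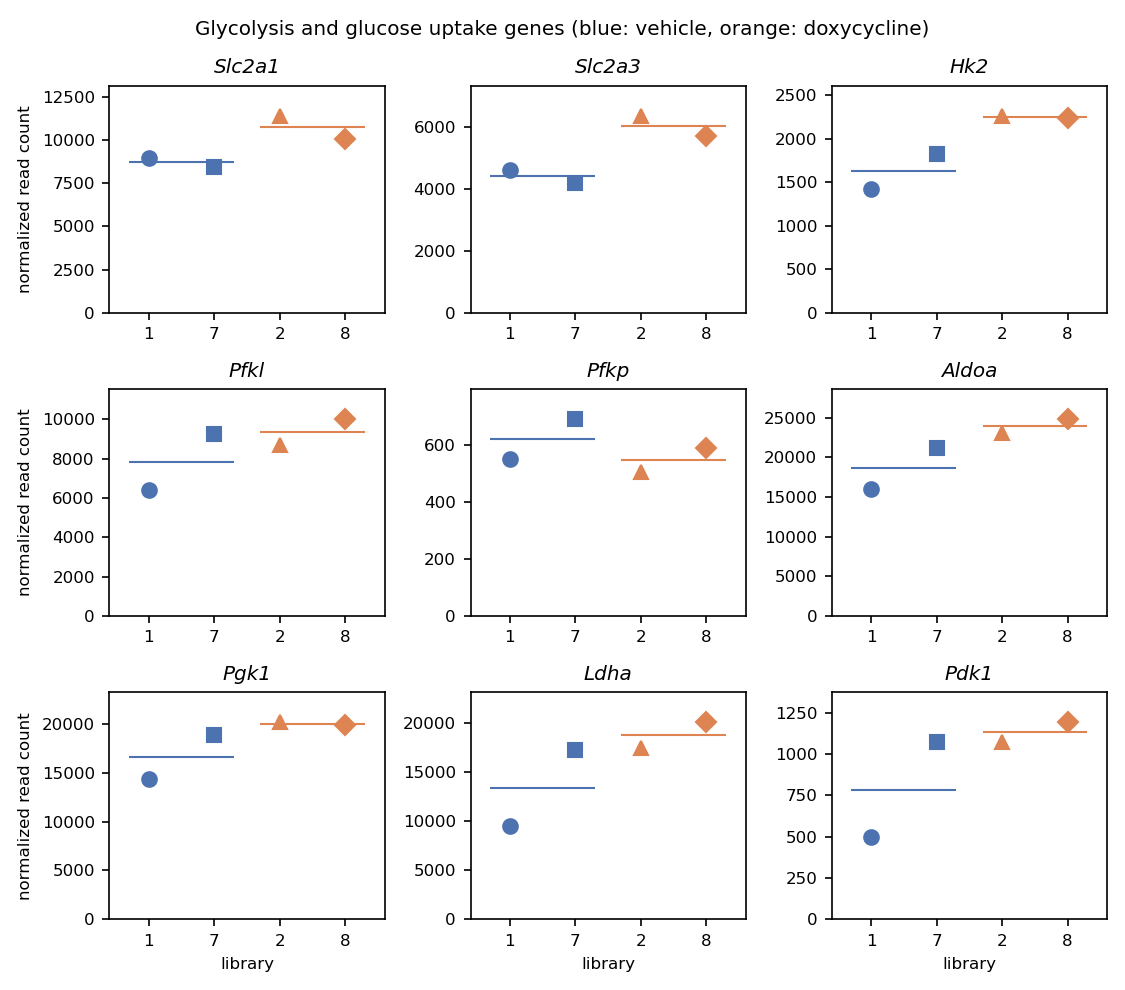
Normalized read count (y axis, from 0) of each listed gene in libraries 1 and 7 (vehicle, blue) and 2 and 8 (doxycycline, orange), with 1 point per library and a line at the mean of each group. Library 1 is the lowest point for Hk2, Pfkl, Aldoa, Pgk1, Ldha and Pdk1, while the vehicle pair lies close together for Slc2a1 and Slc2a3.

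The glucose transporters had close values within each group. Slc2a1 (NM_011400) encodes GLUT1, the transporter found in most dividing cells. Normalized counts were 8969 and 8474 with vehicle (libraries 1 and 7) and 11435 and 10083 with doxycycline (libraries 2 and 8). Both doxycycline libraries were above both vehicle libraries, and library 7, not library 1, was the lowest. The change was 0.30 ± 0.08 and did not pass (limma, adjusted p = 0.119). Slc2a3 (NM_011401) encodes GLUT3, a transporter of high affinity that neurons and early embryos use. In the same order its values were 4609 and 4186 against 6358 and 5705, again with no overlap. With a change of 0.46 ± 0.08, or 1.37-fold, Slc2a3 had the smallest p of the 9 genes and missed the threshold (limma, adjusted p = 0.0583). It passed under quantile normalization (limma, adjusted p = 0.042) and with robust empirical Bayes (limma, adjusted p = 0.0408). With the guessed block of neighbouring libraries it also passed (limma, adjusted p = 1.1e-14), as did 13.9% of all rows as higher. That fit uses a spread pooled over genes and not that of Slc2a3 itself, so its p does not measure the spread of this gene. Without library 1 the change was 0.34 for Slc2a1 and 0.52 for Slc2a3, larger than with all 4 libraries.

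Hexokinase 2, encoded by Hk2 (NM_013820), traps glucose as glucose 6-phosphate and is the inducible hexokinase of growing cells. Hk2 stood at 1423 and 1826 in the vehicle libraries 1 and 7 and at 2266 and 2239 in the doxycycline libraries 2 and 8. The doxycycline libraries were close to each other and above both vehicle libraries, of which library 1 was the lower. The change of 0.48 ± 0.12 did not pass (limma, adjusted p = 0.114), and it was 0.30 without library 1. Hk1, the housekeeping hexokinase, showed the opposite order, at 2763 and 2723 with vehicle and 2175 and 2147 with doxycycline. Its change was -0.34 ± 0.06 (limma, adjusted p = 0.0607). Per kilobase of transcript, Hk2 stood at 0.4 and 0.52 of the Hk1 level in libraries 1 and 7 and at 0.808 and 0.809 in libraries 2 and 8. The log2 change of this ratio between the group means was 0.83, and a gap of 0.38 separated the 2 vehicle libraries. An exact permutation test of 2 against 2 libraries, two-sided, cannot go below p = 0.333, so none is given for single ratios.

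Phosphofructokinase, the committing step, has liver, muscle and platelet type subunits. Pfkl (NM_008826), the liver type, was at 6426 and 9274 in vehicle libraries 1 and 7 and at 8707 and 10025 in doxycycline libraries 2 and 8. Its groups overlapped, since library 7 exceeded library 2. The change was 0.28 ± 0.17 (limma, adjusted p = 0.428), and 0.01 without library 1. Pfkp (NM_019703), the platelet type, was at 552 and 693 with vehicle, against 505 and 588 with doxycycline, also with overlap. Its change of -0.18 ± 0.15 was the 1 value below 0 (limma, adjusted p = 0.528). Per kilobase, Pfkp made up 4.25% and 4.32% of the 3 subunit transcripts with vehicle and 3.30% and 3.46% with doxycycline. The share of Pfkl was 54.9% in library 1 and 63.3% to 65.5% in the other 3 libraries, so the low library again was library 1.

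Aldoa (NM_001177307+NM_007438+NM_001177308) encodes aldolase A, which cleaves fructose 1,6-bisphosphate. Vehicle libraries 1 and 7 held 16026 and 21228 counts, and doxycycline libraries 2 and 8 held 23076 and 24863. The groups did not overlap, and library 1 lay far below the other 3. The change was 0.38 ± 0.13 (limma, adjusted p = 0.191), and 0.17 without library 1. Pgk1 (NM_008828) encodes phosphoglycerate kinase, the first step that recovers ATP. Its values were 14343 and 18921 with vehicle and 20243 and 19913 with doxycycline, without overlap. With all 4 libraries the change was 0.29 ± 0.13 (limma, adjusted p = 0.276), and it was 0.09 without library 1.

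The largest differences between libraries were those of Ldha and Pdk1, which act on the fate of pyruvate. Ldha (NM_001136069+NM_010699) encodes the lactate dehydrogenase subunit that favours lactate formation. Its count was 9489.9 in library 1 but 17244 in library 7, the other vehicle library, and 17465 and 20076 with doxycycline (libraries 2 and 8). The groups did not overlap, but library 7 was within 0.02 of library 2 on the log2 scale, while the vehicle libraries were 0.86 apart. The change was 0.55 ± 0.26 (limma, adjusted p = 0.302) with a 95% interval from -0.10 to 1.20, and 0.12 without library 1. Pdk1 (NM_172665), which inhibits pyruvate dehydrogenase, was at 494 in library 1 and 1070.5 in library 7, against 1075 and 1193 with doxycycline (libraries 2 and 8). Library 1 alone was low, and the gap between the vehicle libraries was 1.11 on the log2 scale. Its change of 0.64 ± 0.34 (limma, adjusted p = 0.345) had a 95% interval from -0.20 to 1.47, and it was 0.08 without library 1.

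**Figure D2:**
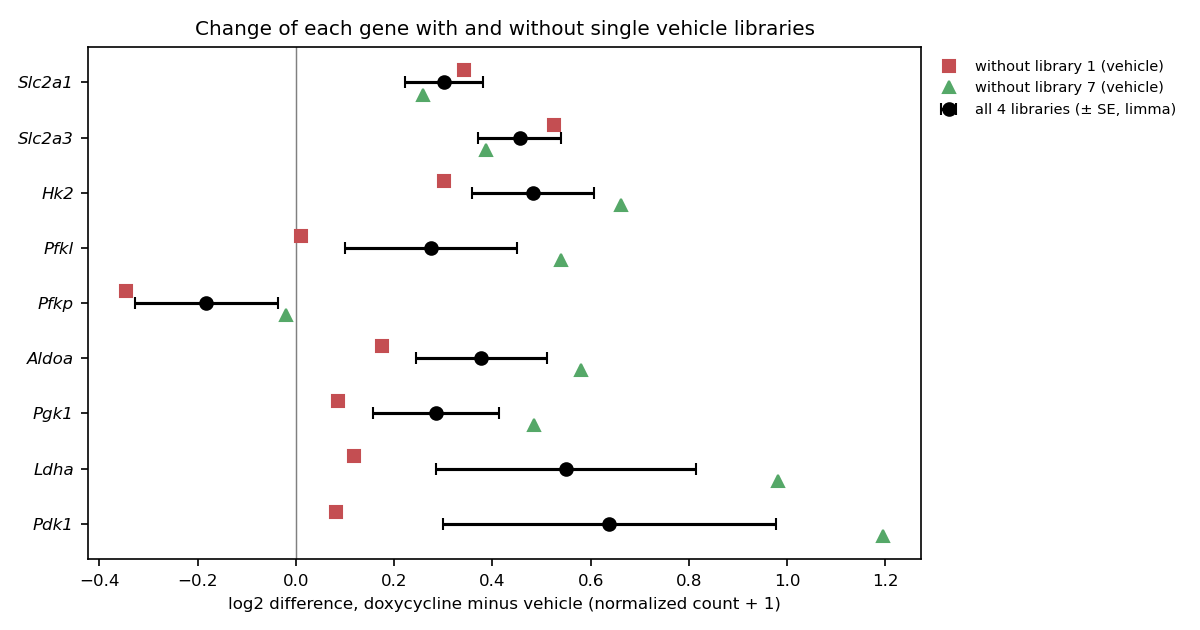
Log2 difference in normalized count + 1, doxycycline minus vehicle (x axis), for each gene with all 4 libraries (circles, bars ± SE from limma), without vehicle library 1 (squares) and without vehicle library 7 (triangles). Without library 1 the values of Pfkl, Pgk1, Ldha and Pdk1 lie between 0.01 and 0.12, while Slc2a1 and Slc2a3 stay at 0.34 and 0.52.

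The size of most of these differences changed with the vehicle library used. Without library 7, which leaves library 1 as the only vehicle library, 6 genes passed the limma test as higher (1.33% of all rows). They were Ldha, Pdk1, Aldoa, Hk2, Pgk1 and Pfkl, with changes of 0.98, 1.20, 0.58, 0.66, 0.49 and 0.54. Without library 1 none passed (0.281% of all rows passed as higher). Such a fit has 1 vehicle library, which is assumed to vary like the doxycycline libraries. Against library 7, library 2 was higher by 0.43 for Slc2a1, 0.60 for Slc2a3 and 0.31 for Hk2, with values of -0.09 for Pfkl and -0.46 for Pfkp. Library 8 minus library 7 gave 0.25 for Slc2a1, 0.45 for Slc2a3, 0.29 for Hk2 and -0.23 for Pfkp, and 0.11 for Pfkl, whose sign thus turned with the doxycycline library. For Ldha and Pdk1 the differences from library 7 were 0.02 and 0.01 in library 2 and 0.22 and 0.16 in library 8. Library 7 exceeded library 1 by over 0.3 on the log2 scale in 7 of the 9 genes, a gap found in 8.22% of all rows. Libraries 2 and 8 differed by less than 0.3 in either direction in all 9, which is common. Over all rows the median gap without its sign was 0.1083 between libraries 7 and 1 and 0.1125 between libraries 8 and 2.

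Levels per kilobase of transcript, which allow genes to be compared, spanned a wide range. Aldoa was the highest, at 10350 to 16050 normalized counts per kilobase over the 4 libraries, followed by Pgk1 at 7859 to 11090 and Ldha at 5229 to 11060. The ranges of these 3 overlapped over libraries, although Aldoa was the highest of the 3 in every library and Pgk1 exceeded Ldha in libraries 1, 7 and 2. Slc2a1, at 2599 to 3508, and Pfkl, at 1723 to 2688, overlapped as well. Slc2a3 was at 1057 to 1606 and Hk2 at 258 to 411, with no overlap between them or with the genes above. Pdk1 at 95.3 to 230 and Pfkp at 122 to 167 were the lowest and overlapped.

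Ratios of related genes within a library do not depend on its scaling. Per kilobase, Ldha stood at 1.52 times Ldhb, the heart-type subunit, in library 1 and at 2.99, 3.03 and 3.86 times in libraries 7, 2 and 8. Pdk1 stood at 0.495 and 0.907 of Pdk2 in vehicle libraries 1 and 7 and at 1.12 and 1.08 times Pdk2 in doxycycline libraries 2 and 8. For both ratios library 1 stood apart from the other 3, and for Ldha the values of libraries 7 and 2 nearly coincided. Relative to Pdk3, Pdk1 stood at 0.193, 0.383, 0.354 and 0.424 in libraries 1, 7, 2 and 8, and the groups overlapped. Slc2a3 stood at 0.423 and 0.407 of Slc2a1 with vehicle and at 0.458 and 0.466 with doxycycline, a small difference that did not overlap. Slc16a3, the lactate exporter of glycolytic cells, stood at 0.265 of the related transporter Slc16a1 in library 1 and at 0.513, 0.685 and 0.558 in libraries 7, 2 and 8.

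**Figure D3:**
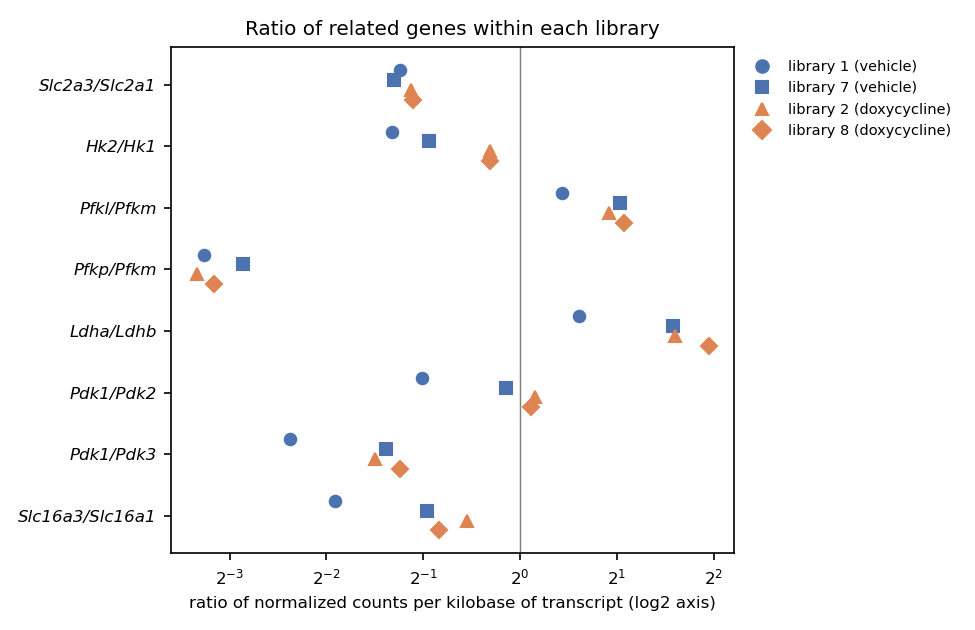
Ratio of normalized counts per kilobase of transcript (x axis, log2 scale) for pairs of related genes, 1 marker per library (blue vehicle, orange doxycycline), with a line at equal levels. Hk2 over Hk1 separates the groups, at 0.4 and 0.52 against 0.808 and 0.809, while for Ldha over Ldhb library 1 stands apart at 1.52.

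The promoters of these genes are shown because 6 of the genes shared low values in library 1 and because HIF binds a short core, ACGTG or GCGTG. The RefSeq promoter table on GRCm38.p6 holds 8 of the 9 listed genes in 12 windows, of which some overlap, and the 250 bases before each start were searched on both strands. A core on the opposite strand reads CACGT or CACGC. At least 1 core lies in 10 of the 12 windows and in 38.6% of all 32851 windows of that length. At least 2 lie in 5 of the 12 and in 16.7% of all windows. A match is a description of these letters and not a binding site. The sequences are those of 4 genes with low values in library 1 and then Slc2a1, 5′ to 3′ on the strand of the gene, with the cores in capitals. The windows are chr7:46845554-46845803 (plus strand) for Ldha, chrX:106186850-106187099 (plus) for Pgk1, chr7:126799255-126799504 (minus) for 1 of the Aldoa starts, chr2:71872974-71873223 (plus) for Pdk1 and chr4:119108495-119108744 (plus) for Slc2a1.
Ldha: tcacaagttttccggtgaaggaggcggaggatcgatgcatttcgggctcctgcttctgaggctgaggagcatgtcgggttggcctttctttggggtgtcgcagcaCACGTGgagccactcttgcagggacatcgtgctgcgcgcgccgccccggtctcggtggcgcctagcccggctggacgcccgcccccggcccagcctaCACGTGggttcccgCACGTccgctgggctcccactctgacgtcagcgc
Pgk1: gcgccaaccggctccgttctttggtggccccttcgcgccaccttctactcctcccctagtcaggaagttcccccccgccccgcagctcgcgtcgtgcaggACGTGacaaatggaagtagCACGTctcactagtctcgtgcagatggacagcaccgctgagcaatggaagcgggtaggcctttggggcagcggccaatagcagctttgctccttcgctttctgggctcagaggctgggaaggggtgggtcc
Aldoa: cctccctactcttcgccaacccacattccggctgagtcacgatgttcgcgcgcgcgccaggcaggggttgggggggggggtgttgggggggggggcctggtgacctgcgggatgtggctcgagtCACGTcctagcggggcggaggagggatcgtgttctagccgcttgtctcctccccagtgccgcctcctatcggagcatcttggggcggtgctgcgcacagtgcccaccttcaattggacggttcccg
Pdk1: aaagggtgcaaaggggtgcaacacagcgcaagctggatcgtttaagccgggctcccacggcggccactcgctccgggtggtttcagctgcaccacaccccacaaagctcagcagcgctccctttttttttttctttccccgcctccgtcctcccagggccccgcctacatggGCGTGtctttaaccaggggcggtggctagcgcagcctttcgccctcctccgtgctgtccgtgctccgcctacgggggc
Slc2a1: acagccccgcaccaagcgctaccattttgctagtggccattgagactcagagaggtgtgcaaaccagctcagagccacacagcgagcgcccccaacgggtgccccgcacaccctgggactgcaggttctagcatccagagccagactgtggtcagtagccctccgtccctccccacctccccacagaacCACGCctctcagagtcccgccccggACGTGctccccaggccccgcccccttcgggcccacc

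The Ldha window shown holds 5 ACGTG cores, 4 of which overlap in pairs as the palindrome CACGTG, and 0.134% of all windows hold 5 or more. The sequence CACGTG is also the E-box that MYC and USF proteins bind, so the letters do not single out 1 factor. It occurs at 2 places in the Ldha window, as in 0.429% of all windows with 2 or more. In the windows shown, Pgk1 has 2 ACGTG cores, Aldoa 1, and Pdk1 1 GCGTG core. A further window of Aldoa and one of Pdk1 hold no core, and a further Ldha window holds 1 GCGTG core. Slc2a1, whose values were not low in library 1, has 1 of each, and Pfkp has 3 GCGTG cores. All 8 genes with a window hold a core in at least 1 of their windows, so the presence of a core cannot be set against their values.

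The other glycolytic enzymes were split in direction, near the shares of all rows. Of 26 further enzymes and regulators 20 are listed, and none passed the limma test, with 5 at an unadjusted p under 0.05. Values above 0 were found for 11 (50.6% of all rows) and below 0 for 9, with a median of 0.03. The groups did not overlap in 7 with higher values (26.7% of all rows) and in 5 with lower values (26.5% of all rows). Beside Hk1, the smallest p-values belonged to Eno2, the neuronal enolase (0.58 ± 0.15), Pgam1, phosphoglycerate mutase (0.29 ± 0.10), and Gapdh, glyceraldehyde 3-phosphate dehydrogenase (0.18 ± 0.07). Eno2 was at 406 and 515 with vehicle and 641 and 727 with doxycycline, which gave no overlap. Tpi1, triose phosphate isomerase, was at 8719 in library 1 and 13025, 13676 and 15442 in libraries 7, 2 and 8, the order seen for Ldha. Library 1 was the lowest library for 10 of the 20 (29.2% of all rows). It was the highest for 7, an order whose share of all rows was not computed. Those 7 include Pfkm, the muscle-type phosphofructokinase, at 3683 in library 1 and 3488, 3543 and 3666 in libraries 7, 2 and 8. Tpi1 and Pfkm were singled out after their values were seen. Ldhb, Pfkm and the regulatory Pfkfb genes had values from -0.24 to 0.01.

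Transport and pyruvate entry were measured by 2 more lists. Of 15 genes of sugar and lactate transport 6 are listed, none passed the limma test and 1 had an unadjusted p under 0.05. That was Slc2a4, which encodes the insulin-responsive transporter GLUT4, at 199 and 174 with vehicle and 265 and 272 with doxycycline (0.53 ± 0.14). Slc16a3 was at 677 in library 1 and at 1964, 1937 and 2333 in libraries 7, 2 and 8. Its change of 0.88 ± 0.46 was 0.11 without library 1. Txnip, an inhibitor of glucose uptake, had a change of 0.28 ± 0.14, and Bsg, the chaperone of lactate transporters, one of 0.12 ± 0.08. Of 13 genes of pyruvate entry 12 are listed, 9 with values below 0 and a median of -0.08, and none passed the test (1 at an unadjusted p under 0.05). Pdp1, the phosphatase that reactivates pyruvate dehydrogenase and so opposes Pdk1, was at 583 and 557 with vehicle and 408 and 368 with doxycycline (-0.56 ± 0.11; limma, adjusted p = 0.0642). Its vehicle libraries were close, and the change was -0.52 without library 1. Mpc1, a pyruvate carrier subunit, had a change of -0.25 ± 0.15, the subunit gene Pdha1 one of 0.13 ± 0.08 and Dlat one of 0.11 ± 0.07.

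Pathways beside glycolysis had medians near 0. All 16 citric acid cycle genes are listed, with a median of -0.02. None passed the limma test, and 1, Suclg2, had an unadjusted p under 0.05 (0.36 ± 0.13). Cs (-0.13 ± 0.06) and Dlst (-0.08 ± 0.07) had values below 0. Library 1 was the lowest library for 4 of the 16 (29.2% of all rows). Of 8 genes of the pentose phosphate list 7 are listed, with a median of 0.02 and no call (1 at an unadjusted p under 0.05). That gene is Tigar, listed under a clone name, a phosphatase that lowers glycolytic flux (-0.42 ± 0.15). The others with the smallest p were Pgd (-0.13 ± 0.06), Rpe (0.14 ± 0.11) and Pgls (0.10 ± 0.08).

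HIF targets outside glycolysis were mostly lowest in library 1, but many followed another order than the 9 genes. Of 20 such genes 16 are listed, and library 1 was the lowest library for 14 of them (29.2% of all rows). In 8 of the 16 both libraries 7 and 8 lay above both 1 and 2 (16.5% of all rows), an order found in 2 of the 9 glycolysis and glucose uptake genes, Pfkl and Pfkp, and in 4 of the 6 sugar and lactate transport genes. On the centred log2 scale of the plot of lists by library, the HIF targets averaged -0.38 and 0.14 with vehicle (libraries 1 and 7) against -0.06 and 0.30 with doxycycline (libraries 2 and 8), so doxycycline library 2 lay below vehicle library 7. Plod2, a collagen lysyl hydroxylase chosen after its values were seen, was at 5357 and 9525 in libraries 1 and 7 and at 5640.1 and 9055 in libraries 2 and 8. Their median change was 0.21, and 0.07 without library 1. None passed the limma test, and 4 had an unadjusted p under 0.05. Ddit4, an inhibitor of mTOR signalling, was at 1544 and 1893 with vehicle and 2372 and 2416 with doxycycline (0.49 ± 0.11). The change was 0.63 ± 0.22 for Ak4, a mitochondrial adenylate kinase, 0.30 ± 0.11 for Ero1l, which forms disulfide bonds, and 0.22 ± 0.08 for Bnip3l, a mitophagy receptor. Bnip3, its relative, chosen after its values were seen, was at 887 in library 1 and 1647, 1850 and 1992 in libraries 7, 2 and 8. The 10 components of the HIF pathway itself are all listed and none passed the test (3 at an unadjusted p under 0.05), with a median of -0.03. Hif1a, the oxygen-regulated subunit, was at 3693, 3552, 3892 and 3448 in libraries 1, 7, 2 and 8 (0.02 ± 0.08), although HIF1A is controlled mainly as a protein. Hif3a was at 129 and 149 with vehicle and 229 and 210 with doxycycline (0.66 ± 0.17). Arnt2 (-0.26 ± 0.07) and the prolyl hydroxylase gene Egln2 (-0.24 ± 0.07) had values below 0, and Arnt, the common partner subunit, one of 0.16 ± 0.08.

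**Figure D4:**
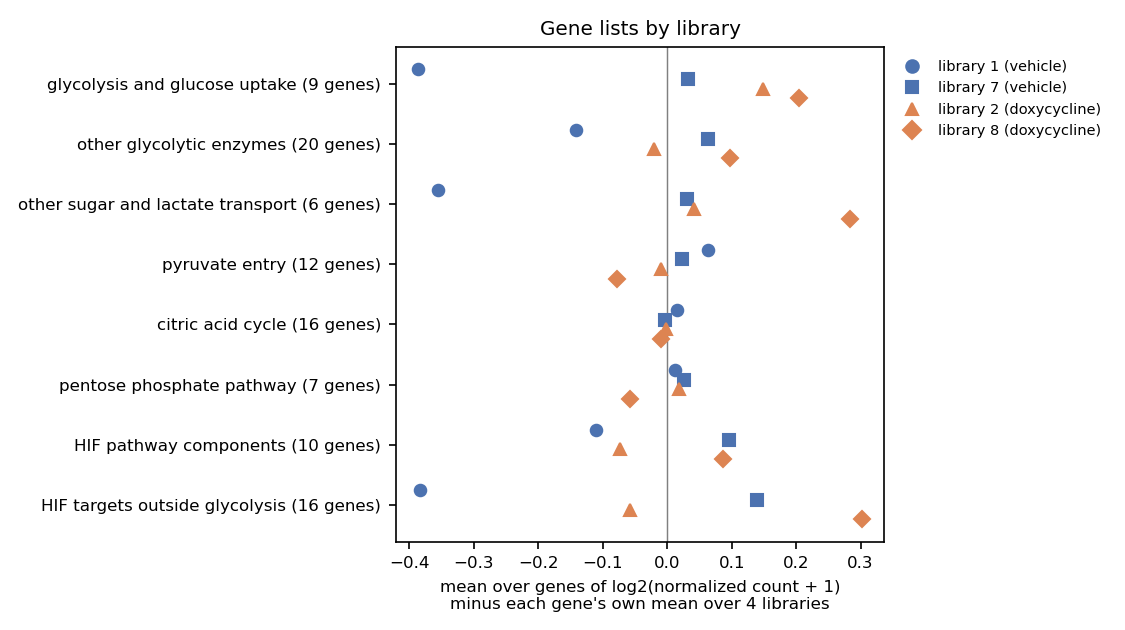
Mean over the genes of each list of log2(normalized count + 1), centred on each gene's own mean over the 4 libraries (x axis), with 1 marker per library (blue vehicle, orange doxycycline). The 9 glycolysis and glucose uptake genes lie at -0.39 and 0.03 in vehicle libraries 1 and 7 and at 0.15 and 0.20 in doxycycline libraries 2 and 8, and the citric acid cycle genes lie between -0.01 and 0.01 in all 4.

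Marker genes of several cell types describe the cultures only in part, since how specific each is to its cell type was not tested. The labelled motor neuron identity is carried by 8 listed markers of 9, among them Mnx1, at 1658 and 1499.96 in libraries 1 and 7, and Slc18a3, at 2974 and 2866. With doxycycline 7 of the 8 fell (1.79% of all rows were lower). Lhx3 alone had a change above 0, of 0.55 ± 0.17 (limma, adjusted p = 0.155). It was at 1352 and 974 with vehicle and at 1819 and 1546 with doxycycline, without overlap. The summed level of all 8 was 13667 to 14440.0 normalized counts with vehicle and 5229 to 6004 with doxycycline. Of 12 neuronal markers 9 fell, such as Gap43 (-1.43 ± 0.11), with sums of 138017 to 155440.0 and 61914.5 to 76693. Of 10 progenitor and cycling markers none passed (5 at an unadjusted p under 0.05), 8 had values above 0, and the sums were 65352 to 71069 and 74082 to 79277. Sox2 had a change of 0.43 ± 0.11 and Top2a one of 0.34 ± 0.09. Nkx6-1 (-0.24 ± 0.09) and Nes (-0.13 ± 0.06) went the other way, with both doxycycline libraries below both vehicle libraries. Of 8 glial markers 3 are listed and 1, Slc1a3, rose (0.52 ± 0.08). Without library 1 its change was 0.54, in a fit with 1 vehicle library that did not keep the call. That fit also did not keep the calls of the neuronal markers Snap25 (-0.67) and Dcx (-0.76). Gfap, Aldh1l1, S100b, Aqp4 and Sox10 are not listed, and the sums were 1937 to 2201 and 2881 to 2884. The 9 listed endoderm and mesoderm markers of 14 had no call (1 at an unadjusted p under 0.05), with sums of 182359 and 367372 in vehicle libraries 1 and 7 and of 135549 and 332089 in doxycycline libraries 2 and 8. Col4a1 and Lamb1, basement membrane genes, made up most of these sums. Libraries 7 and 8 lay above 1 and 2 in 7 of the 9 markers (16.5% of all rows), the order seen in 8 of the 16 HIF targets. The other markers differed, with Acta2, a smooth muscle actin, at 837 and 376 in libraries 1 and 7 and at 520 and 344 in libraries 2 and 8, and Kdr, an endothelial receptor, at 121 and 126 and at 69.6 and 66.2. The 6 listed pluripotency markers of 8 had no call (0 at an unadjusted p under 0.05), and their sums were 2507 and 1817 in vehicle libraries 1 and 7 and 2106 and 1558 in doxycycline libraries 2 and 8. In 5 of these 6 both libraries 1 and 2 lay above both 7 and 8, the reverse of the endoderm order, and the exception was Klf4. The share of all rows with that reverse order was not computed. No listed marker was at 0. The part of these markers in the values of the glycolysis genes and HIF targets was not tested, and in bulk RNA fewer cells of a type and less RNA per cell cannot be told apart.

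The rows closest to the mean profile of the 9 genes over the 4 libraries were sought among genes whose mean reached 50 counts. Likeness was the Euclidean distance between log2 values centred on each gene's mean. The 6 closest were AI661453, Irf2, Osbpl3, Ikzf2, Glb1l and Cyp39a1, at distances from 0.03 to 0.06. Among the 9 genes themselves Aldoa was closest to the mean profile, at 0.04, and Pdk1 (0.57), Pfkp (0.55), Slc2a3 (0.43) and Slc2a1 (0.40) were the farthest. With 4 libraries many unrelated rows can share such a profile.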

How the data were processed

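Illumina TruSeq libraries of total RNA were sequenced on a HiSeq, per the labels' protocols. Tools named in the submitters' processing notes are CASAVA, TopHat2, HTSeq and DESeq, and the build is mm9, with no versions or roles. The deposited values are a signal per row: read counts that the authors appear to have divided by 1 factor per library. Within each library 100% of them lie within 0.1 of whole multiples of 1 step, from which 22434755 to 30235763 reads per library were estimated. Low values are too few for these to count as recovered reads, and count models were not used. Column initials gave the groups, and column numbers were matched to no sample. The labels do not name separate cultures within a group, so p-values may measure technical spread only. Libraries of 1 group differed beyond sampling noise (chi-square per degree of freedom 26.4 and 28.3).

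The log2(normalized count + 1) values were tested with limma 3.58.1 (R 4.3.3), two-sided, with an intensity trend and Benjamini-Hochberg adjustment over 11747 rows at 0.05. There were 2 residual and 3.83 prior degrees of freedom. Requiring a row mean of 10 removed nothing, the lowest being 40.1. The 10 genes, the gene lists and the rule for named genes were chosen with earlier results of these data known. That rule names the 10 genes, the 4 genes of each pathway list with the smallest p, up to 2 markers per marker list and the 6 rows most like the 10 genes, and 1 gene it names is not reported here. Lengths are those of the longest GENCODE M21 transcript matched by RefSeq accession, and promoter sequences are RefSeq's. Strand use in counting, and the handling of reads shared with processed pseudogenes of Aldoa, Ldha and Pgk1, are not given in the sources used, so these 3 genes are uncertain. Software was Python 3.11.15 with pandas 2.3.3, scipy 1.17.1, numpy 2.4.6 and matplotlib 3.10.9. Alternatives tried were a pseudocount of 0.5 or 5, other filters (none, or a row mean of 50), TMM factors, quantile normalization, no trend, robust empirical Bayes, each library left out, and libraries paired by neighbouring column numbers.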

Additional observations from a re-analysis of the deposited data

How the results depend on the processing

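All 117 alternative values of the 9 genes, from 13 settings, kept their direction. The filters, the trend, robust empirical Bayes and the block cannot move a gene's change, so there its direction was fixed in advance. The count of genes passing as higher, 0 in the reported fit, was 1 under quantile normalization and 1 with robust empirical Bayes (Slc2a3 each time). With single libraries left out it ranged from 0 to 6, the 6 coming without library 7. None passed as lower under any of these settings. Leaving out 1 library gave median changes of the 9 genes from 0.12 (without library 1) to 0.54 (without library 7). Over all rows 68 passed as higher and 210 as lower, against 27 and 78 without a trend, 132 higher with robust empirical Bayes, and 33, 156, 16 and 2 higher and 100, 338, 97 and 42 lower without library 1, 7, 2 and 8. The labels pair no libraries, since the columns carry other numbers than the labels' replicates. As a guess, libraries 1 with 2 and 7 with 8 were taken as a replicate block (correlation of their deviations over genes 0.63). This gave 8 of the 9 genes as higher, all but Pfkp, and 1636 higher and 1872 lower rows. That fit has 1 residual degree of freedom and an infinite prior, so each gene takes the pooled spread at its level and not its own. The edgeR alternative was not run, since the reads could not be taken as recovered.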
